A study of Mus musculus with 2 samples.

Results

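The nuclear genes of the mitochondrial respiratory chain were followed in single-cell RNA sequencing (scRNA-seq) data from CD31+ cells of the mouse mesentery. Members were chosen by symbol, as genes beginning with Nduf, Uqcr, Atp5, Sdha, Sdhb, Sdhc or Sdhd, or with Cox followed by 4, 5, 6, 7 or 8. The rule matched 96 of the 28692 genes in the files. Of these, Cox7b2 and Cox8c had 0 unique molecular identifiers (UMIs, each standing for 1 captured RNA molecule) in both libraries, which left 94 members. Each of the 94 had UMIs in both libraries. Cells came from C57BL/6 pups at P8. Each genotype gave 1 library, pooled from the cells of 3 mice, and the Flcn iΔEC library is called KO here as in the labels. In the KO, floxed Flcn alleles were deleted by the tamoxifen-dependent Cre of a Cdh5-BAC-CreERT2 transgene, whose Cdh5 promoter is active in endothelial cells. The labels give the same 4 injections of 40 µg 4-hydroxytamoxifen, from P2 on, for the control and the KO library. The labels do not spell out the genotype of the controls. Cells of the pooled mice cannot be told apart in the files.

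Oxidative phosphorylation (OXPHOS) is carried out by 5 protein complexes in the inner mitochondrial membrane. Complex I (Nduf genes) oxidises NADH and complex II (Sdha to Sdhd) oxidises succinate, and both hand electrons to ubiquinone. Complex III (Uqcr genes) passes them on to cytochrome c, complex IV (Cox genes and Ndufa4) reduces oxygen, and complex V (Atp5 genes) uses the proton gradient to make ATP. A few subunits are encoded in mitochondrial DNA and the others by nuclear genes, of which those matched by the symbol rule are described here. Some complex IV subunits have alternative isoforms that are restricted to heart and skeletal muscle, testis, lung or hypoxic cells. Flcn encodes folliculin, a regulator of mTORC1 signalling and of the transcription factors TFEB and TFE3. Endothelial cells are known for covering much of their ATP need by glycolysis.

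The control library had 6814 cells with a median of 7283 UMIs, and the KO library had 4459 cells with a median of 8587 UMIs. The members took 1188624 UMIs of the control library (18388 CPM, counts scaled to a library or class total of 1000000) and 1282795 of the KO library (21097 CPM). Clustering put 557 control and 870 KO cells in an endothelial class, 6164 and 3454 in a non-endothelial class, and 93 and 135 in a cluster in which endothelial markers were detected without standing out, which was kept apart. The summed level of 8 pan-endothelial markers was 5586 and 5688 CPM in the endothelial class, against 166 and 129 CPM in the non-endothelial class, so most cells of both CD31+ preparations were not endothelial. Xist counts were 9 (control) and 63462 (KO), and those of 4 Y-linked genes 15535 and 17, so genotype and sex cannot be told apart. Flcn itself had 134 UMIs (10.3 CPM) in control and 256 UMIs (9.93 CPM) in KO endothelial cells, a ratio of 0.969 (0.783 to 1.20). The reads came from the 3′ end of transcripts, and where the deleted part of Flcn lies relative to them is not given in the sources used here, so this count is no check of the deletion. The libraries shared 6 cell barcodes. There was 1 library per genotype, so no test between genotypes was possible. All intervals are exact 95% intervals that cover counting error only, and where a count is 0 the limit is the one that 3 counts would set.

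Endothelial cells of the KO library held slightly more OXPHOS transcripts than those of the control library. The 94 members summed to 21371 CPM in control and 23391 CPM in KO endothelial cells, a log2 ratio of 0.13 (0.12 to 0.14). The log2 ratio was largest for complexes IV and III. Complex IV summed to 5982 CPM in control and 7020 CPM in KO cells, a log2 ratio of 0.23 (0.22 to 0.24). Complex III summed to 2213 and 2507 CPM, a log2 ratio of 0.18 (0.16 to 0.20). Complexes I and V had smaller ratios. Complex I summed to 6259 and 6554 CPM, with a log2 ratio of 0.07 (0.05 to 0.08), and complex V to 6142 and 6510 CPM, with a log2 ratio of 0.08 (0.07 to 0.10). For complex II, which also belongs to the tricarboxylic acid (TCA) cycle, the sums of 414 and 419 CPM did not differ beyond counting error, with a log2 ratio of 0.02 (-0.03 to 0.06). Members that encode assembly factors, and Atp5s, were kept out of the sums of the complexes, and they summed to 361 CPM in control and 382 CPM in KO cells (log2 ratio 0.08). Cox7a2l, classed as a supercomplex factor, was counted with complex IV.

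Gene by gene, 90 members had at least 100 UMIs in endothelial cells over both libraries, and only Cox8b of these was over 1.5-fold higher in the KO, while 0 were over 1.5-fold lower. Cox8b reached that number of UMIs through the KO library alone. Over all 11599 genes with that number of UMIs, 7.2% were higher and 14.8% were lower by over 1.5-fold. The median log2 ratio of all genes was -0.13, that of the members was 0.08, and 64 of the 90 members were above 0 and 89 above the median of all genes. Of all genes, 36.2% were above 0. The 1 member below that median was Ndufaf5, an assembly factor of complex I. Most members therefore sat a little above the typical gene of these libraries, and few sat far from 1. The composition of the class also differed, since lymphatic-like cells were 45 of 557 control and 162 of 870 KO cells, and the summed level of 8 lymphatic markers was 1947 and 4964 CPM. Erythroid marker genes summed to 34 CPM in control and 668 CPM in KO endothelial cells. The part of either in the OXPHOS sum was not tested, but with equal weight for each named endothelial type the log2 ratio was 0.06, and after centring on the median of all genes it was 0.26.

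**Figure D1:**
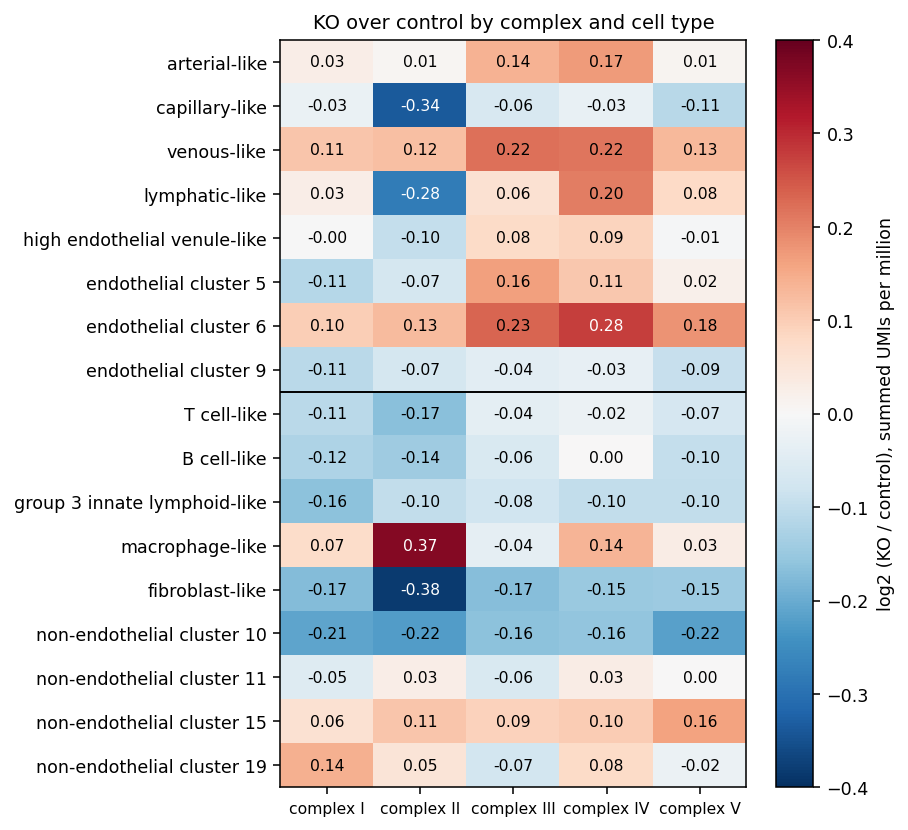
Log2 ratio of the KO over the control library for the summed members of each complex (columns) in each cell type or cluster (rows, endothelial above the line), with the value in each square and red for higher in KO. Venous-like cells stand at 0.22 for complexes III and IV, while complex II runs from -0.38 in fibroblast-like to 0.37 in macrophage-like cells.

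By endothelial type, the direction of the sum was not uniform. Venous-like cells (73 control and 122 KO cells) held 20294 CPM of members in control and 22657 CPM in KO, a log2 ratio of 0.16. Lymphatic-like cells held 23496 and 25020 CPM, a log2 ratio of 0.09, and had the highest level of the 5 named endothelial types in both libraries. Arterial-like cells held 20425 and 21464 CPM, a log2 ratio of 0.07. Cells like those of high endothelial venules (HEVs), the lymph node vessels through which lymphocytes enter, held 20982 and 21409 CPM, a log2 ratio of 0.03. Capillary-like cells went the other way, with 21628 CPM in control and 20713 CPM in KO and a log2 ratio of -0.06. The median log2 ratio of all genes was -0.05 there, so this sum was near the typical gene. It was -0.07 in venous-like, -0.17 in lymphatic-like, -0.12 in arterial-like and -0.02 in HEV-like cells. Complex II differed in sign from the other complexes in lymphatic-like cells, where its sum was 532 CPM in control and 438 CPM in KO (log2 ratio -0.28, -0.42 to -0.13) while complex IV was at 0.20. All 4 subunits were lower there, Sdha with 142 and 115 CPM and Sdhb with 168 and 138 CPM. In capillary-like cells the sum of complex II was 442 and 350.5 CPM (-0.34, -0.56 to -0.12). The HEV-like cluster also carried 6 markers of group 3 innate lymphoid cells and 3 of T cells above the marker limit, beside 3 of its own 4, and the venous-like name rested on 3 of 7 markers. A type's own markers also differed between libraries. They summed to 5112 CPM in control and 12286 CPM in KO lymphatic-like cells and 8687 and 3459 CPM in HEV-like cells. In venous-like cells they summed to 4490 and 2532 CPM, in arterial-like to 3515 and 2825 CPM and in capillary-like to 5382 and 6761 CPM. The part of this in the ratios within types was not tested. Among unnamed endothelial clusters, cluster 6, led by genes of the cell cycle, held 22448 and 25571 CPM of members. Cluster 5, led by Aqp8 and Agrp and with a summed lymphatic marker level of 6540 CPM in control and 7810 CPM in KO, held 25693 and 26039 CPM. Cluster 8 was made up of 46 KO cells and 0 control cells and held 24593 CPM of members. Its first leading gene was Hbb-bs, and hemoglobin genes summed to 11234 CPM in it, against 667 CPM over all KO endothelial cells.

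**Figure D2:**
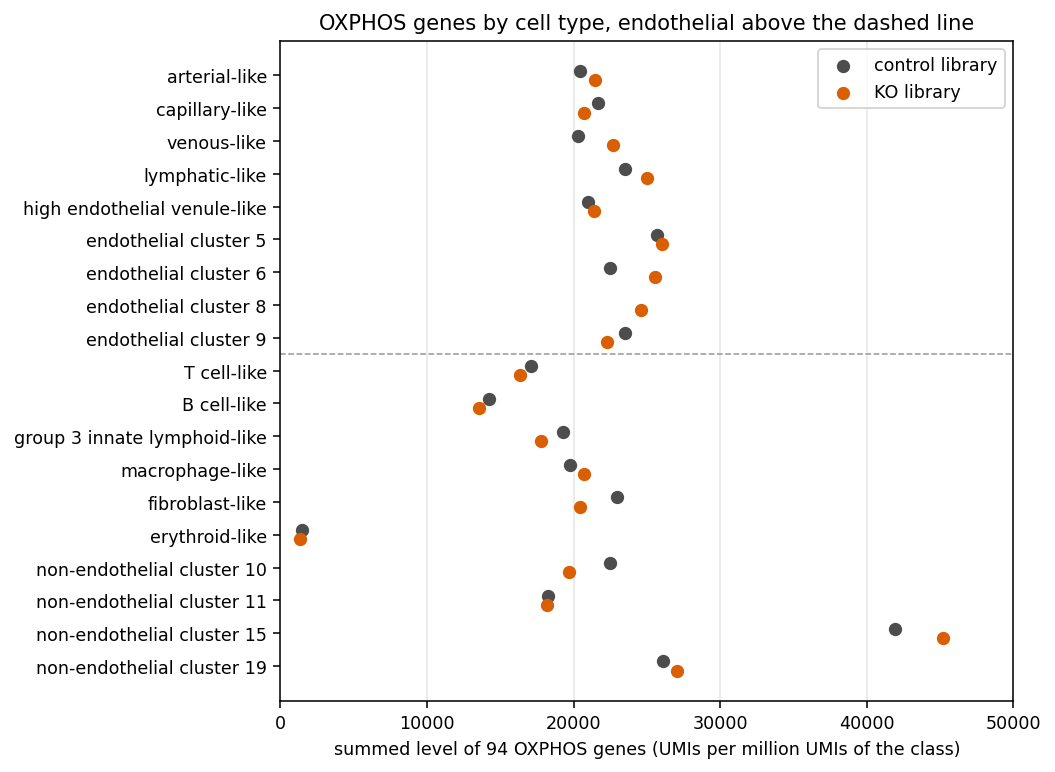
Summed level of the 94 members in CPM of each cell type or cluster, 1 point per library, with endothelial types above the dashed line. Non-endothelial cluster 15 stands at 41906 (control) and 45186 (KO), B cell-like cells at 14255 and 13546 and erythroid-like cells at 1469 and 1360, while the named endothelial types lie between 20294 and 25020.

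In non-endothelial cells the sum depended on 1 cluster. Over the whole class the members summed to 17573 CPM in control and 19175 CPM in KO, a log2 ratio of 0.13 (0.12 to 0.13), but without cluster 15 the log2 ratio was -0.10. Cluster 15 was led by genes of gut epithelium, among them Apob, which packages dietary fat, the transcription factor Cdx1 and the calcium-binding protein gene S100g. Its 33 control and 72 KO cells gave 3.29% and 6.93% of the UMIs of their libraries and held more OXPHOS transcripts than any other cluster, 41906 CPM in control and 45186 CPM in KO. The lymphocytes that made up most of the class were lower in the KO. T cell-like cells held 17089 and 16333 CPM, a log2 ratio of -0.07, B cell-like cells 14255 and 13546 CPM, also -0.07, and group 3 innate lymphoid-like cells 19251 and 17769 CPM, a log2 ratio of -0.12. The median log2 ratio of all genes was -0.065 in T cell-like, -0.099 in B cell-like and -0.029 in group 3 innate lymphoid-like cells. That of the members was -0.102, -0.110 and -0.120. The sums in T cell-like and B cell-like cells thus lay near the typical gene of these types. Fibroblast-like cells (30 and 32 cells) held 22956 and 20462 CPM, a log2 ratio of -0.17, whereas macrophage-like cells (92 and 52 cells) held 19739 and 20733 CPM, a log2 ratio of 0.07. Erythroid-like cells, whose RNA is mostly hemoglobin, held 1469 and 1360 CPM of members, and their log2 ratio of -0.11 (-0.25 to 0.03) was within counting error.

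Of the 92 members with at least 100 UMIs in non-endothelial cells, 3 were over 1.5-fold higher in the KO (Cox6b2, Ndufa4l2 and Cox6a2) and 0 were over 1.5-fold lower. Of all 12418 genes with that number of UMIs, 10.8% were higher and 4.54% lower by that fold. The members' median log2 ratio was 0.14, beside -0.01 for all genes, and 74 of the 92 were above 0, beside 48.1% of all genes. By complex the log2 ratios of the sums were 0.08 for complex I, 0.19 for II, 0.17 for III, 0.18 for IV and 0.10 for V, all with cluster 15 included.

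Directions were also read type by type, in the 5 named endothelial types and in the 3 lymphocyte types (T cell-like, B cell-like and group 3 innate lymphoid-like). Of the 75 members with at least 100 UMIs in each of these 8 types, 14 (18.7%) were higher in the KO in all 5 endothelial types and 2 (2.67%) in 0 of them. Over all 2597 genes with that depth, the shares were 11.4% and 20.3%. Complexes III and IV held most of the 14, with 4 of 8 members of complex III (Uqcr10, Uqcr11, Uqcrfs1 and Uqcrq) and 5 of 12 of complex IV (Cox5a, Cox5b, Cox6b1, Cox7c and Cox8a). Complex I gave 4 of 35 (Ndufa5, Ndufb8, Ndufb9 and Ndufs6), complex V 1 of 15 (Atp5c1) and complex II 0 of 5. The 2 members lower in all 5 endothelial types were Ndufa3, an accessory subunit of complex I, and Uqcrc1, a core subunit of complex III. In lymphocytes, 45 of the 75 members (60%) were higher in 0 of the 3 types and 3 in all 3, beside 38.5% and 14.7% of all genes. In complex V, 13 of 15 members were higher in 0 of the 3 lymphocyte types. Members that were higher in all 5 endothelial types and in 0 of 3 lymphocyte types were Atp5c1, Cox5a, Cox7c, Ndufa5 and Uqcr11, 5 of 75 (6.67%), beside 2.81% of all genes. The types of a library come from the same mice and are not replicates.

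Cox7c, a small structural subunit of complex IV, shows the pattern. Its level was 545 and 610 CPM (control and KO) in arterial-like, 510 and 536 CPM in capillary-like, 513 and 622 CPM in venous-like, 554 and 796 CPM in lymphatic-like and 512 and 596 CPM in HEV-like cells. In T cell-like cells it was 388 and 371 CPM and in B cell-like cells 358 and 340 CPM, so that the KO was higher in each endothelial type and lower in both lymphocyte types. The median log2 ratio of all genes was also below 0 in these, at -0.065 in T cell-like and -0.099 in B cell-like cells. Ndufa3 was lower in the KO throughout, at 126 and 125 CPM in arterial-like, 156 and 124 CPM in capillary-like, 139 and 114 CPM in T cell-like and 108 and 81.5 CPM in B cell-like cells.

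The core subunits of complex II, and Ndufs1 and Ndufv1 of complex I, were close to equal in endothelial cells of both libraries. Of the 7 nuclear core subunits of complex I, Ndufs1, the largest iron-sulfur subunit, had 40.3 CPM in control and 38.8 CPM in KO cells and Ndufv1, which binds NADH, had 98.2 and 97.5 CPM. In complex II, Sdha, the flavoprotein that oxidises succinate, had 105 CPM in both, Sdhb, its iron-sulfur partner, 125 and 130 CPM, and the membrane anchors Sdhc and Sdhd 74.2 and 75.0 CPM and 109 CPM in both. The log2 ratios of these 4 subunits of complex II ran from -0.01 to 0.05, above the all-gene median of -0.13 and near 0. In complex III, Uqcrfs1, the Rieske iron-sulfur protein, had 149 CPM in control and 178 CPM in KO (log2 ratio 0.26), Uqcrc2 had 165 and 173 CPM (0.07), and Uqcrc1 had 146 and 135 CPM (-0.11). These core subunits of complex III thus moved in unlike directions. In the F1 part of complex V, where ATP is made, Atp5b (beta) had 553 and 595 CPM, Atp5a1 (alpha) 433 and 427 CPM and Atp5c1 (gamma) 358 and 378 CPM.

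Among members with at least 100 endothelial UMIs, complex IV had the most even direction over the whole class. All 14 such members of complex IV were above 0, with a median log2 ratio of 0.23. Of them 13, all but Cox8b, lay between 0.14 and 0.39. The members of complex IV below that number had fewer UMIs in KO than in control cells. They were Ndufa4l2 (33 in control, 32 of them from 1 cell, and 6 in KO), Cox4i2 (26 and 18), Cox7a1 (20 and 18) and Cox6a2 (7 and 3). Cox4i1, the regulatory subunit that binds ATP, had 919 CPM in control and 1069 CPM in KO cells (log2 ratio 0.22), the highest level of any member in both libraries. Cox5a had 340 and 441 CPM (0.38), Cox5b, which binds zinc, 363 and 438 CPM (0.27), and Cox7c 539 and 709 CPM (0.39). Cox6c was among the smaller differences, with 635 and 710 CPM (0.16). Within types the direction was less even. Cox6c was higher in the KO in 1 of the 5 named endothelial types (-0.02 to 0.12), and Cox4i1, Cox7b and Ndufa4 in 3 of 5. Of 12 members of complex IV read type by type, 5 were higher in all 5. By type, the sum of complex IV had a log2 ratio of 0.22 in venous-like, 0.20 in lymphatic-like, 0.17 in arterial-like and 0.09 in HEV-like cells and of -0.03 in capillary-like cells. Cox6b2, the testis isoform, was the least stable of the 14, at -0.03 with a finer clustering. Of the 8 complex III members, 7 were above 0, led by Uqcr10 with 244 and 309 CPM (0.34). Levels are UMIs of 3′ ends, 1 for each molecule, and were not scaled to gene length.

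In complex I, 24 of 36 subunits were above 0, and their log2 ratios ran from -0.11 to 0.38 around a median of 0.06. Ndufb6, an accessory subunit of the membrane arm, was the highest at 114 CPM in control and 147 CPM in KO, followed by Ndufs6 at 120 and 151 CPM (0.33). Ndufa13, also known as GRIM-19, had 273 and 261 CPM (-0.07). In complex V, 10 of 15 subunits were above 0, from -0.04 to 0.39. Atp5l, subunit g of the membrane part, had 498 and 653 CPM (0.39), whereas Atp5h, subunit d of the stalk, had 512 and 499 CPM (-0.04). Atp5e and Atp5j were also below 0, at 589 and 582 CPM and at 540 and 524 CPM. Atp5s, a coupling-factor homologue that is no subunit of the enzyme, was low, with 64 UMIs (4.90 CPM) in control and 176 UMIs (6.83 CPM) in KO cells (0.47). It passed the 1.5-fold limit at a finer clustering, after centring and without HEV-like cells.

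Assembly factors had mixed directions. Of the 8 for complex I, 3 were above 0, with a median log2 ratio of -0.06, and of the 4 for complex II, 3 were above 0, with a median of 0.11. Ndufaf5, which modifies the core subunit Ndufs7, had 88 UMIs (6.73 CPM) in control and 134 UMIs (5.20 CPM) in KO cells, the lowest log2 ratio of the 90 members (-0.38), with a ratio interval of 0.59 to 1.02. Ndufaf1 had 13.9 and 12.9 CPM (-0.11), Atp5sl, which despite its symbol is an assembly factor of complex I, 19.4 and 18.0 CPM (-0.10), and Ndufaf7, a methyltransferase, 19.4 and 23.2 CPM (0.26). Sdhaf4, an assembly factor of Sdha, had 61.5 and 73.1 CPM (0.25). Because the libraries differed in Xist, the X-linked members were read separately. Cox7b had 273 and 341 CPM (0.32), Ndufa1 had 179 and 172 CPM (-0.06) and Ndufb11 283 and 271 CPM (-0.06), so the X-linked members had no common direction.

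**Figure D3:**
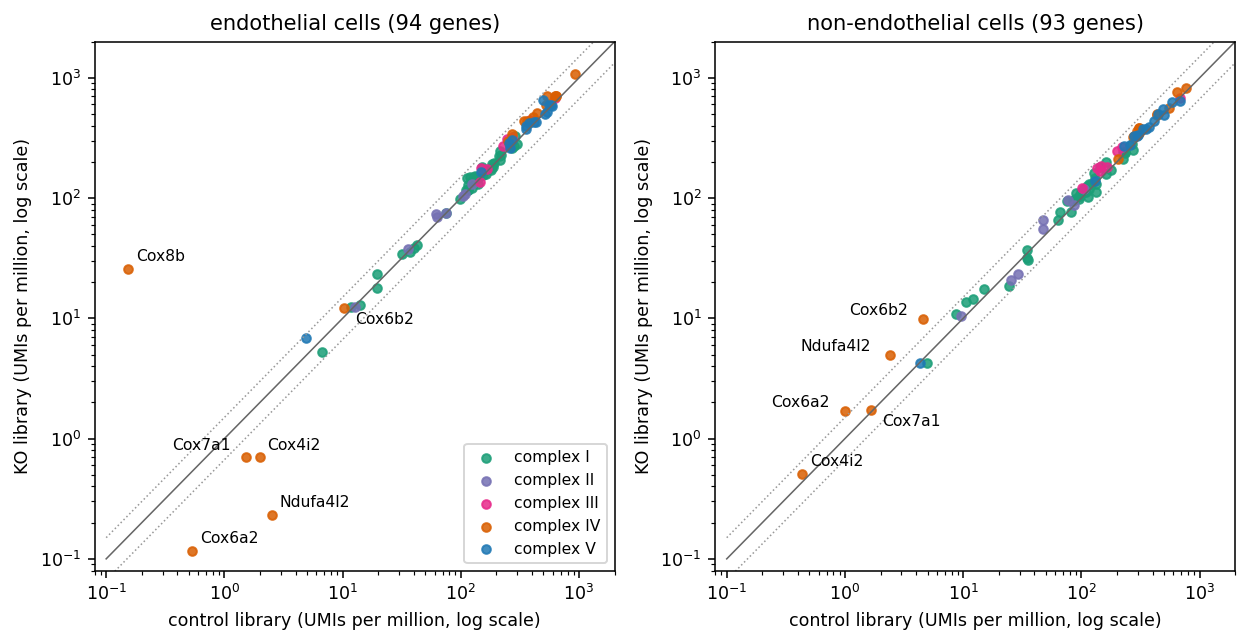
Level of each member in CPM (both axes logarithmic) in the control and the KO library, in endothelial cells (94 members) and non-endothelial cells (93, as Cox8b had 0 UMIs in the control), coloured by complex, with lines for equal levels (solid) and for 1.5-fold differences (dotted). Cox8b in endothelial cells, at 0.153 and 25.9, is the point far above the line, and the other labelled members are restricted isoforms of complex IV.

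In non-endothelial cells the largest ratios belonged to members of low level and restricted isoforms. Cox6b2, the testis isoform of Cox6b1, had 231 UMIs (4.54 CPM) in control and 330 UMIs (9.82 CPM) in KO cells, a ratio of 2.17 (1.82 to 2.57). Of these, 31 and 190 UMIs were from cluster 15, and without that cluster 2 members (Ndufa4l2 and Cox6a2) were over 1.5-fold higher. Ndufa4l2, the hypoxia-inducible relative of Ndufa4, had 2.42 and 4.97 CPM, a ratio of 2.06 (1.62 to 2.62). It was highest in fibroblast-like cells, with 249 CPM in control and 332 CPM in KO. These were 30 of 6164 control and 32 of 3454 KO cells of the class, and the part of this composition in the ratio was not tested. Cox6a2, the heart and muscle isoform of Cox6a1, had 51 and 57 UMIs (1.0 and 1.70 CPM). Next came Sdhaf1, an assembly factor of Sdhb, with 46.9 and 65.6 CPM (log2 ratio 0.48), and Uqcr11, with 134 and 178 CPM (0.41). Sdhaf1 was also higher in the KO in each of the 3 lymphocyte types (0.19 to 0.54). Uqcr11 was lower in each of them (-0.33 to -0.14), and the part of cluster 15 in its ratio over the class was not tested. At the other end stood 3 more assembly factors, Ndufaf3 with 24.6 and 18.6 CPM (-0.40), Sdhaf2, which helps attach FAD to Sdha, with 28.9 and 23.2 CPM (-0.32) and Sdhaf4 with 25.2 and 20.7 CPM (-0.28), followed by Ndufa3 with 133 and 112 CPM (-0.24) and Atp5sl with 35.7 and 30.3 CPM (-0.24). Sdhaf4 was thus below 0 here and above 0 in endothelial cells, and the difference between the classes was not tested.

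Cox8b, the heart and skeletal muscle isoform of subunit VIII, was the member with the largest difference. It lies on chromosome 7 (chr7:140898945-140900446, minus strand, GRCm38), and its broadly expressed counterpart Cox8a on chromosome 19 (chr19:7215153-7217616, minus strand). The 250 bases before the annotated start of each gene, from RefSeq on GRCm38.p6, are printed 5′ to 3′ on the minus strand to set the promoter of the member that differed most beside that of its common isoform, with E-box letters CANNTG and, in Cox8a, the cAMP response element half-site TGACG (on the reverse strand, CGTCA) in capitals.
Cox8b, chr7:140900447-140900696: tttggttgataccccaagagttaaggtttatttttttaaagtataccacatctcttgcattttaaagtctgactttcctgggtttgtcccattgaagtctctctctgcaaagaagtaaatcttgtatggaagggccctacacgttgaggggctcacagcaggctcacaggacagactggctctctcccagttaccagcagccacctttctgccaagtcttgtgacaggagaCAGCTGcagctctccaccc
Cox8a, chr19:7217617-7217866: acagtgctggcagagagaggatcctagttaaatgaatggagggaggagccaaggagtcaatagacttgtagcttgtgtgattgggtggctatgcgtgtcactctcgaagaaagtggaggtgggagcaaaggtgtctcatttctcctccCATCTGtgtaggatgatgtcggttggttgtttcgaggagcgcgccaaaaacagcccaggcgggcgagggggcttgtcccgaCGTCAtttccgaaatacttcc
Each window held 1 E-box, which 69.3% of all promoters have in 250 bases, and the window of Cox8b held no other searched motif. The letters are a description of the sequence and show no binding.

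In endothelial cells Cox8b had 2 UMIs (0.153 CPM) in the control and 668 UMIs (25.9 CPM) in the KO library, a ratio of 169 (46.7 to 1401). Most of it was in arterial-like cells, which held 533 of the 668 UMIs (79.8%) and were 15.1% of KO endothelial cells. In these cells 2 UMIs were counted in 104 control cells (1.09 CPM), and 533 UMIs in 131 KO cells (172 CPM, 158 to 188), a ratio of 159 (43.7 to 1313). For comparison, 5.52% of the 6108 genes with at least 100 UMIs in arterial-like cells were over 1.5-fold higher in the KO. The transcript was found in 59 of the 131 KO cells (45%, 36.3% to 54.0%), with a median of 5 UMIs in cells that had any and up to 65 in 1 cell. The median depth was 16716 UMIs in these cells and 12106 UMIs in control arterial-like cells. The 5 highest cells held 181 UMIs (34%), so the level was uneven between cells but not carried by 1 of them. After thinning each cell to 2000 UMIs, 24 of 131 KO cells (18.3%) and 0 of 102 control cells had a Cox8b UMI, with 2 control cells too shallow to be used. The arterial-like class joined 2 clusters. In cluster 4, led by Gkn3 and Gja5, Cox8b had 1 UMI in 57 control cells and 341 UMIs in 112 KO cells (124 CPM), and in cluster 7, led by Alpl and Cxcl12, 1 UMI in 47 control cells and 192 UMIs in 19 KO cells (546 CPM), of which the 5 highest cells held 79.7%. The KO was higher in both.

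Outside arterial-like cells the level of Cox8b was lower. Endothelial cluster 9, led by Apba2 and Mrc1, came next, with 0 UMIs in 14 control cells and 34 UMIs in 25 KO cells (60.9 CPM, 42.2 to 85.1). This KO level was 4.78-fold the control's floor of 3 counts over the group, a fold that leaves out counting error in the KO. Here 15 of the 25 KO cells (60%, 38.7% to 78.9%) had a Cox8b UMI, and 4 of 24 (16.7%) after thinning to 2000 UMIs. The 8 lymphatic markers summed to 23756 CPM in control and 31182 CPM in KO cells of this cluster, above their sum in lymphatic-like cells (5112 and 12286 CPM). Most of the sum came from the highest single marker, at 13684 and 20311 CPM, and the marker rule left the cluster unnamed. Cox8b in KO lymphatic-like cells was at 3.44 CPM. Venous-like cells had 0 UMIs in 73 control and 122 KO cells, and the latter allows a share of cells with a UMI of up to 2.46%. Capillary-like cells had 0 UMIs in the control and 11 in 50 KO cells, 9 of them from 1 cell. HEV-like cells had 0 and 40 UMIs (6.95 CPM in KO, 4.97 to 9.47, and 10.5-fold the same kind of floor), of which 5 cells held 32. Lymphatic-like cells had 0 and 15 UMIs. T cell-like and B cell-like cells had 0 UMIs in both libraries, and 0 of 1138 KO T cell-like cells allows a share of up to 0.264% at a median of 7758 UMIs per cell. All other non-endothelial cells of the KO gave 5 UMIs. Markers of tissues known for this isoform stayed low in arterial-like cells. The 5 striated muscle markers summed to 1.09 CPM in control and 0.970 CPM in KO cells with 3 of them at 0 in each, and the 6 adipocyte markers to 16.8 and 9.05 CPM with 5 at 0 in each. The 7 mural and smooth muscle markers summed to 611 and 569 CPM, but 2 of them were higher in the KO. The highest of them in each library was at 310 CPM in control and 408 CPM in KO. Lymphatic markers summed to 20.7 and 90.9 CPM. The part of mural or lymphatic markers in the Cox8b difference was not tested.

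Cox8b made up 0.180% of the UMIs of Cox8b and Cox8a together in control arterial-like cells and 19.9% (18.4% to 21.5%) in KO arterial-like cells. Within them the share was 15.2% in KO cluster 4 and 44.4% in KO cluster 7, and in KO endothelial cluster 9 it was 7.89%. Cox8a itself had 642 CPM in control and 708 CPM in KO endothelial cells (log2 ratio 0.14) and was not lower in the KO.

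**Figure D4:**
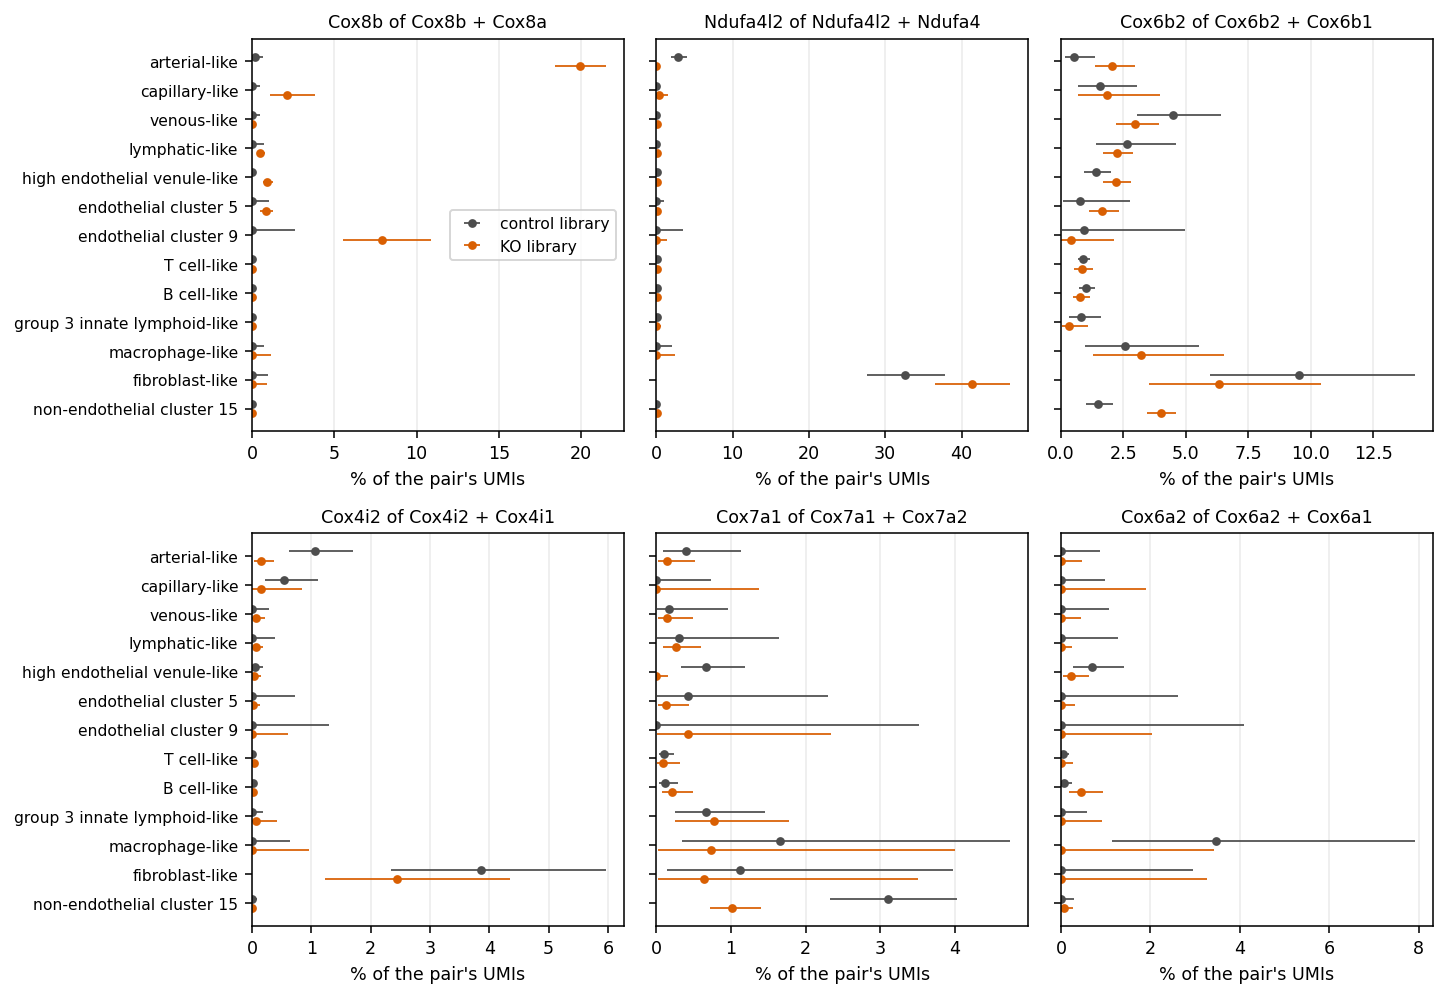
Share of each restricted isoform in the summed UMIs of the isoform and its common counterpart, in percent, by cell type and library, with exact 95% binomial intervals that cover counting error only. The Cox8b share stands at 19.9% in KO arterial-like cells against 0.180% in the control, and the Ndufa4l2 share at 32.5% and 41.4% in fibroblast-like cells.

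Of the other restricted isoforms of complex IV, 4 (Cox4i2, Cox6a2, Cox7a1 and Ndufa4l2) had under 100 UMIs in endothelial cells. Ndufa4l2 was a gene of fibroblast-like cells, with 249 CPM in control and 332 CPM in KO, and made up 32.5% and 41.4% of its pair with Ndufa4. Its 33 UMIs in control endothelial cells, against 6 in KO cells, were almost all (32) from 1 arterial-like cell of 64614 UMIs that also held 16 UMIs of Cox4i2 and 504 of mural markers. Cox4i2, the isoform of lung and of cells that respond to hypoxia, had 43.4 and 22.4 CPM in fibroblast-like cells, 3.86% and 2.45% of its pair with Cox4i1. Cox6b2 made up 9.50% and 6.34% of its pair in fibroblast-like cells, and 1.46% in control and 4.00% in KO cells of cluster 15. In endothelial cells it had 133 UMIs (10.2 CPM) and 312 UMIs (12.1 CPM), with a log2 ratio of 0.24. Cox7a1, the heart and muscle isoform of Cox7a2, had 53 UMIs (25 CPM) in control and 37 UMIs (8.78 CPM) in KO cells of cluster 15, 3.10% and 1.02% of its pair. The Cox6a2 UMIs of non-endothelial cells came in part from single cells, since 1 cell held 23 of the 51 UMIs in the control and 1 cell 24 of the 57 in the KO. Cox8b and Cox6b2 reached 100 endothelial UMIs over both libraries, and of these only Cox8b had a ratio over 1.5. Cox8b reached that minimum through the KO library alone (668 UMIs, against 2 in the control), so passing it is no separate trait.

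Subunit c, the proton-carrying ring of complex V, is encoded by 3 genes whose mature proteins are the same. In endothelial cells Atp5g1 gave 23.5% of its UMIs in the control and 25% in the KO, Atp5g2 52.8% and 52.2%, and Atp5g3 23.7% and 22.7%. B cell-like cells leaned to Atp5g2 (59.1% and 63.1%), whereas cells of cluster 15 divided their UMIs more evenly, with 37.1% and 39.1% from Atp5g1 and 33.5% and 33.6% from Atp5g2.

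Across the 10 named cell types other than erythroid-like cells, with both libraries joined, most members varied little. Among the 91 with at least 100 UMIs in these types, the ratio of the highest to the lowest type had a median of 2.07 (quartiles 1.73 and 2.76), 72 were under 3-fold and 3 were at least 10-fold. B cell-like cells were lowest for 69 members and T cell-like cells for 9. An endothelial type was highest for 63 members, and for 40 of these it was the lymphatic-like type. The 3 widest ranges were those of Ndufa4l2, Cox8b and Cox6b2, all restricted isoforms. Cox8b reached its rank through the KO library alone, since its arterial-like level was 1.09 CPM in control and 172 CPM in KO. Among the common genes, Atp5sl ran from 51.0 CPM in B cell-like to 6.46 CPM in fibroblast-like cells, against the general order. Sdhaf1 ran from 184 CPM in group 3 innate lymphoid-like to 29.1 CPM in fibroblast-like cells, Ndufa8, an accessory subunit of complex I, from 450 CPM in venous-like to 76.4 CPM in B cell-like cells, and Uqcrb, the ubiquinone-binding protein of complex III, from 458 CPM in arterial-like to 93.2 CPM in T cell-like cells. For Ndufa8 the venous-like level was 468 CPM in control and 442 CPM in KO, and the arterial-like level 190 and 205 CPM, so the difference among endothelial types was seen in both libraries. The narrowest range was that of Uqcrfs1, at 1.26-fold, followed by Atp5a1 at 1.38-fold and Ndufb11 at 1.41-fold.

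The other genes of the pathway were read in the same way in endothelial cells. The 13 mitochondrially encoded subunits summed to 34094 CPM in control and 35868 CPM in KO cells, with a median log2 ratio of 0.13, and 0 of 13 were past 1.5-fold in either direction. Within them mt-Nd4l (0.45) and mt-Nd5 (0.19) were highest and mt-Nd6 (-0.33) and mt-Co1 (-0.06) lowest. Of 14 TCA cycle enzymes 0 were past 1.5-fold and the median was 0.05, from Idh2 (0.24) and Dlst (0.20) to Ogdh (-0.24) and Fh1 (-0.23). Of 76 mitochondrial ribosomal protein genes, Mrps6 was higher by over 1.5-fold (47.3 and 71.7 CPM, ratio 1.52) and 0 were lower, with a median of 0.07. Of 14 genes for cytochrome c and the assembly of complex IV, 2 were higher and 0 lower, with a median of -0.01. These were Sco2, a copper chaperone (19.8 and 38 CPM, ratio 1.92), and Cox19, which acts in copper delivery (39.6 and 73.8 CPM, ratio 1.87), whereas Cox15, needed for heme A, had a log2 ratio of -0.42 and Cox20 of -0.31. Cox19 was higher in lymphatic-like cells (55.6 and 96.3 CPM) and in cluster 5 (85.8 and 195 CPM) but not in arterial-like cells (29.9 and 29.8 CPM).

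Of 13 regulators of mitochondrial biogenesis with enough UMIs, only Ppargc1a, which encodes the coactivator PGC-1α, was over 1.5-fold higher in KO endothelial cells, 0 were lower, and the median was -0.19. Ppargc1a had 39 UMIs (2.98 CPM) in control and 1325 UMIs (51.4 CPM) in KO endothelial cells, a ratio of 17.2 (12.5 to 24.3). By type it was read only in the 5 named endothelial types and in clusters 5 and 6, so not in cluster 9. Among these its largest differences lay in lymphatic-like cells and clusters 5 and 6. Cox8b had 0 UMIs in the control there and 15, 20 and 7 UMIs in the KO. A relation between the 2 genes was not tested. In lymphatic-like cells Ppargc1a had 2 UMIs in the control and 270 UMIs (61.9 CPM) in the KO, in cluster 5 it had 24 UMIs (52.8 CPM) and 771 UMIs (253 CPM), and in cycling cluster 6 it had 0 and 189 UMIs (67.8 CPM in KO). In arterial-like cells, where Cox8b differed most, Ppargc1a had 9 UMIs (4.89 CPM) and 14 UMIs (4.53 CPM). Cluster 5, with the most Ppargc1a of those read, held 25693 CPM of OXPHOS members in control (22 cells) and 26039 CPM in KO (120 cells). The median log2 ratio of all genes was -0.15 there, and 59 of the 82 members with at least 100 UMIs were above it. Of the other 12 regulators, 9 were below the median of all genes, among them Esrra (12.8 and 11.3 CPM), Nrf1 (28.9 and 23.1 CPM) and Tfam (40.5 and 35.6 CPM). The other 3 were Gabpa (-0.10), Gabpb1 (0.24) and Tfb2m (0.42), and the lowest log2 ratios were those of Pprc1 (-0.43) and Tfeb (-0.39).

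**Figure D5:**
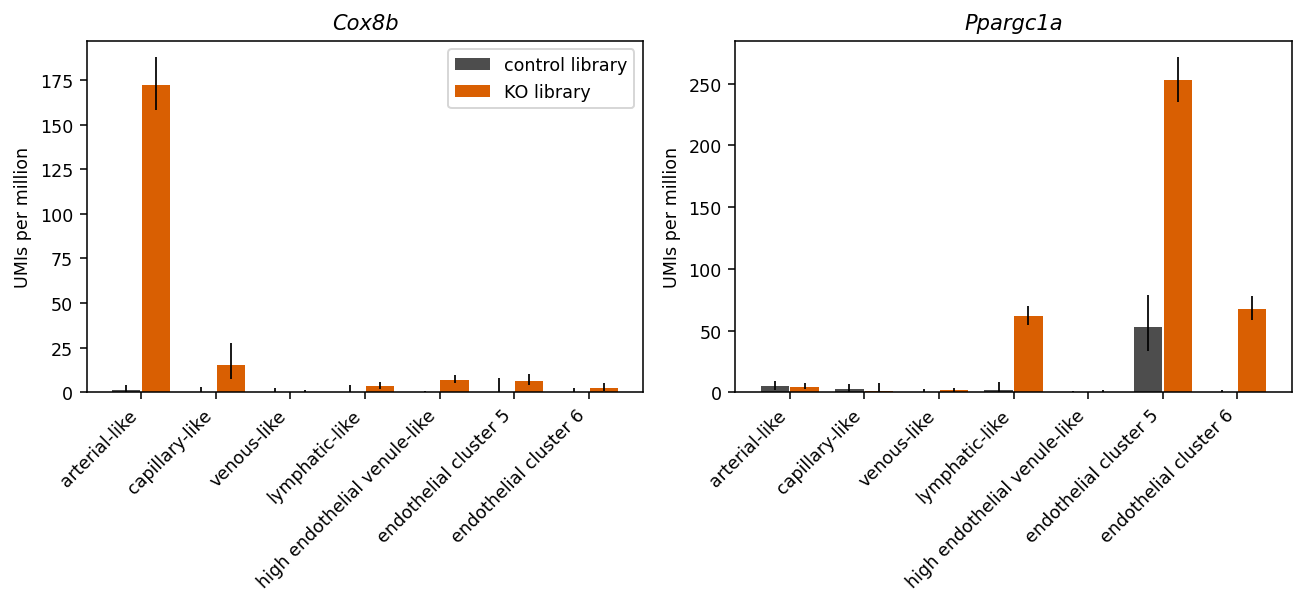
Level of Cox8b and of Ppargc1a in CPM in the 5 named endothelial types and in endothelial clusters 5 and 6, 1 bar per library, with exact 95% Poisson intervals that cover counting error only. Cox8b peaks in KO arterial-like cells (172) and Ppargc1a in KO cluster 5 (253), and Ppargc1a in KO arterial-like cells is at 4.53.

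The promoters were searched for short motifs in the 250 bases before the start of the 79 members with an entry in the RefSeq table. On both strands, the NRF1 letters GCGCANGC were in 21 of 79 (26.6%) against 9.38% of all 27025 genes with an entry, and the ETS letters CCGGAAG in 15 (19%) against 7.83%. The full cAMP response element TGACGTCA was in 4 (5.06%) against 1.77%, and its half-site TGACG, which the full element contains, in 26 (32.9%) against 19.8%. The letters AAGGTCA of nuclear receptors such as ESRRA were in 5 (6.33%) against 4.7%, and the E-box CANNTG in 64.6% against 69.3%. The E-box CACGTG, a form that TFEB and TFE3 can bind and that CANNTG includes, was in 7 (8.86%) against 6.86%, namely Atp5f1, Atp5g1, Atp5g3, Atp5l, Atp5sl, Ndufa7 and Ndufv1. In endothelial cells these ran from a log2 ratio of -0.10 (Atp5sl) to 0.39 (Atp5l). The MEF2 letters CTATTTATA were in 0 of 79 against 0.459%.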

How the data were processed

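CD31+ mesenteric cells of control and Flcn iΔEC mice were profiled in 1 library each with a droplet-based 3′ kit. The authors aligned reads and counted UMIs with Cell Ranger (version 3.0 and build mm10 in the submitters' processing notes; the annotation is not given in the sources used here), and deposited raw UMI counts for called cells. Depth was 64639756 (control) and 60805779 (KO) UMIs.

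Counts were read in Python 3.11.15 (numpy 2.4.6, pandas 2.3.3, scipy 1.17.1) and clustered with Seurat 5.3.0 in R 4.3.3 after anchor integration (2000 features, 30 dimensions, resolution 0.8), with no cell filter and with the members and other lists left out of the features. Doublets called by Scrublet (scanpy 1.11.5), 2.08% of control and 0.830% of KO cells, were kept. Figures used matplotlib 3.10.9. Clusters with 6 or more of 8 pan-endothelial markers, each in at least 20% of cells, were taken as endothelial if these markers also gave the cluster its name, and types needed at least 3 markers at least 2-fold above other cells. Counts were summed per type, scaled to CPM, and compared as ratios with exact conditional intervals; log2 ratios of single genes had 1 count added. Genes needed 100 summed UMIs. No test was possible with 1 library per genotype. Members' positions are from GENCODE on GRCm38, and 5 members share exon bases with another gene on their strand (Atp5g2, Atp5o, Ndufb2, Ndufb8 and Ndufb9), so their counts are less certain. Of the 94 members, 15 had no promoter entry and 3 were matched by a newer symbol.

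Named genes were the core subunits, isoforms, X-linked members, the 5 largest and 5 smallest ratios per class, the widest ranges over types, and the 2 largest and 2 smallest ratios of each other list. The members and lists were chosen with earlier results of these data known. Not every named core subunit is reported here.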

Additional observations from a re-analysis of the deposited data

Results flagged for a closer look

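The summed OXPHOS members did not move one way in all cell types, which called for a closer look. The log2 ratio of KO over control was 0.0716 in arterial-like, 0.159 in venous-like, 0.0907 in lymphatic-like and 0.0290 in HEV-like cells and 0.0709 in macrophage-like cells, whereas it was -0.0623 in capillary-like, -0.0653 in T cell-like, -0.0736 in B cell-like, -0.116 in group 3 innate lymphoid-like and -0.166 in fibroblast-like cells. With 1 library per genotype the differences between types were not tested.

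Cox8b was also found outside the compared classes, at 11.1 CPM in KO cells of the cluster that was neither endothelial nor non-endothelial (16 UMIs in 8 of 135 cells), against 0 UMIs in its 93 control cells.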

How the results depend on the processing

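No paired analysis was possible because each genotype had 1 library, and for the same reason no replicate could be left out. The endothelial log2 ratio of 0.13 was 0.16 at a resolution of 1.6, 0.15 with CPM free of mitochondrial, ribosomal protein and hemoglobin genes, 0.26 after centring on all genes, 0.0576 with equal weight per type, 0.10 in named types only and 0.15 without HEV-like cells. It was above 0 under every alternative run. The non-endothelial ratio of 0.13 was 0.14 with a filter on cells, 0.16 with the reduced CPM and 0.14 after centring, but -0.0819 as the mean of single cells, -0.11 without cycling clusters (which include cluster 15), -0.0768 with equal weight per type, -0.10 without cluster 15, -0.10 without clusters 15 and 19 and -0.0943 in T cell-like and B cell-like cells only. The endothelial count of 1 higher member was 2, Cox8b and Atp5s, at a resolution of 1.6, after centring and without HEV-like cells. The count of 0 lower members was 4 with no count minimum, namely Cox4i2, Cox6a2, Cox7a1 and Ndufa4l2 of complex IV. The non-endothelial count of 3 higher members was 1 without cycling clusters, 1 at a minimum of 400 UMIs and 0 in T cell-like and B cell-like cells only, and the count of 0 lower members was 1 as the mean of single cells. The settings that leave out or keep certain clusters or types, other than the cycling clusters, were chosen after seeing the data. The log2 ratio of Cox8b ranged from 6.07 to 6.95. Of 41 named members, 27 were above 0 in endothelial cells and 40 after centring. Depth limits the restricted isoforms, 4 of which had under 100 endothelial UMIs, and differences between the mice of a library or between the sexes cannot be told apart from genotype.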
